A study of Mus musculus with 6 samples.

Results

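The subject is a set of 10 genes for C-type lectin receptors of myeloid cells: Clec9a, Clec12a, Cd209a, Mgl2, Clec10a, Clec4a4, Clec4n, Clec4e, Clec4d and Clec7a. The genes were taken by name and matched by symbol to the gene lists of the libraries. Of the 10 genes, 9 were described in the fraction enriched with CD11b and CD11c beads, among 32285 genes. Clec7a was not analysed in that fraction and is described from the fraction depleted of CD45+ cells, whose gene list holds 54752 genes and all 10 members. Despite that label the largest clusters of the depleted fraction were B cells, and its DCs too are leukocytes, the lineage that carries CD45, so that the values from it describe cells left over after depletion. Single-cell 3′ RNA libraries had been made from lymph nodes (axillary and inguinal) of C57Bl/6 mice. The mice carried a YUMMER1.7 melanoma, carried a YUMM1.7 melanoma or were free of tumour (naive). YUMM1.7 is a melanoma line of mouse origin, and ultraviolet mutagenesis of it gave YUMMER1.7, which provokes a stronger immune response. Each arm had 1 library per fraction, and each library pooled several mice, so no difference between arms has a replicate check. The sources used here give neither age nor sex of the mice, nor the time of tumour growth.

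C-type lectin receptors are membrane proteins through which myeloid cells bind sugars, lipids and debris of microbes and dying cells. Some signal through an ITAM motif, their own or that of the partner chain Fcer1g, to the kinase Syk and the adaptor Card9, and so switch on cytokine genes. Others carry an inhibitory ITIM motif that recruits phosphatases such as Ptpn6, and still others mainly take up ligands for presentation to T cells. In lymph nodes, several of them serve as surface markers that separate dendritic cell (DC) subsets, monocytes, macrophages and neutrophils.

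In the GENCODE vM21 annotation of mm10, 7 of the 10 genes lie on chromosome 6. Clec4a4 (chr6:122990367-123024105, + strand), Clec4n (chr6:123229843-123247021, + strand), Clec4d (chr6:123262111-123275265, + strand) and Clec4e (chr6:123281789-123289870, − strand) form one group there. Clec4d and Clec4e lie 6523 bases apart and are transcribed towards each other. Clec12a (chr6:129342691-129365303, + strand), Clec9a (chr6:129408862-129424763, + strand) and Clec7a (chr6:129461591-129472779, − strand) form another, in which the annotation gives Clec7a the type polymorphic pseudogene. Mgl2 (chr11:70130329-70137550, + strand) and Clec10a (chr11:70156197-70170834, + strand) are close relatives that lie 18646 bases apart on chromosome 11, and Cd209a (chr8:3743397-3748984, − strand) lies on chromosome 8. Clec4a4, Cd209a, Mgl2 and Clec10a each have near relatives in the genome, and the sources used here do not say how reads matching several genes were counted, so their counts are less certain.

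Promoter sequences from RefSeq (build GRCm38.p6) were matched for 7 of the 10 genes. The 250 bases before the RefSeq gene start are shown for Clec4e and Clec4d, neighbours whose levels were most alike among the members, and for Cd209a and Mgl2, both highest in cDC2 by mean level over the named classes. Each is written in the direction of the gene, at chr6:123289872-123290121 (− strand) for Clec4e, chr6:123261857-123262106 (+ strand) for Clec4d, chr8:3748985-3749234 (− strand) for Cd209a and chr11:70130107-70130356 (+ strand) for Mgl2. For Mgl2 the RefSeq start lies inside the gene as GENCODE gives it, so the last bases of that window are within the GENCODE gene. Capitals mark matches to any of 5 motifs, searched on both strands, with distances counted from the RefSeq start.
Clec4e: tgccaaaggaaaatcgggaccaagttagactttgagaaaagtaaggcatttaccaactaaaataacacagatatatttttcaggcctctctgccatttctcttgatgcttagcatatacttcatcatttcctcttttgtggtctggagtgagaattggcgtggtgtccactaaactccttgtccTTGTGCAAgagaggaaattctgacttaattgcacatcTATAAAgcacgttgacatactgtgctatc
Clec4d: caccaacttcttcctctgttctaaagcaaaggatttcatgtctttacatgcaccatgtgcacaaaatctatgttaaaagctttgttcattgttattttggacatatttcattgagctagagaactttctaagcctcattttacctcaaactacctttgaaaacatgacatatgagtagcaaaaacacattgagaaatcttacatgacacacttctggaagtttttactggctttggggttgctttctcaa
Cd209a: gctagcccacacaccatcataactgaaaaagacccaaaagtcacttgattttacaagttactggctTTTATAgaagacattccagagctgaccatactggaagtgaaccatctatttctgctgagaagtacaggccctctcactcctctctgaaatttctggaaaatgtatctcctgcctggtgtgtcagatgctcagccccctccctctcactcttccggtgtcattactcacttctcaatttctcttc
Mgl2: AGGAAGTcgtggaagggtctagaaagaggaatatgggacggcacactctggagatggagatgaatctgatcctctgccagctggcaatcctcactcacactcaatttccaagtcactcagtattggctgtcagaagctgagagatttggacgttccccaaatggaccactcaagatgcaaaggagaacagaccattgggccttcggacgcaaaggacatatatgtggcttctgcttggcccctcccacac
The motifs were the TATA box (TATAAA), a PU.1-type ETS site (AGGAAGT), a C/EBP site (TTGCNNAA), an AP-1 site (TGANTCA) and an interferon response element. In Clec4e a TATA box starts 29 bases before the gene start, and a C/EBP match on the opposite strand starts 66 bases before it. The Clec4d window holds none of the 5 motifs. In Cd209a a TATA box match on the opposite strand starts 184 bases before the gene, and in Mgl2 a PU.1-type match starts 250 bases before it. Among 27025 mouse promoter windows of the same length, 12.97% held the TATA box, 9.55% the C/EBP site, 7.80% the PU.1-type site, 6.87% the AP-1 site and 3.04% the interferon response element. These matches describe the letters only.

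The enriched libraries held 78551522 unique transcript counts (UMIs) in the YUMMER1.7 arm, 78305030 in the YUMM1.7 arm and 86471908 in the naive arm. After filtering, 6466, 7095 and 9951 cells remained in the same order of arms, with medians of 10149, 9408 and 6708 UMIs. Libraries of the fraction shared between 6 and 31 cell barcodes by pairs, at most 0.397% of the smaller library. Cells were grouped into clusters without the 10 members and named from markers that include no member, so that a name such as monocyte stands for monocyte-like cells. Levels are given as CPM, the UMIs of a gene per 1000000 UMIs of a class in one library. All intervals in brackets are 95% intervals that cover counting error only. The naive macrophages were shallow, with a median of 1435 UMIs against 17136 in the YUMMER1.7 and 11811 in the YUMM1.7 library.

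**Figure D1:**
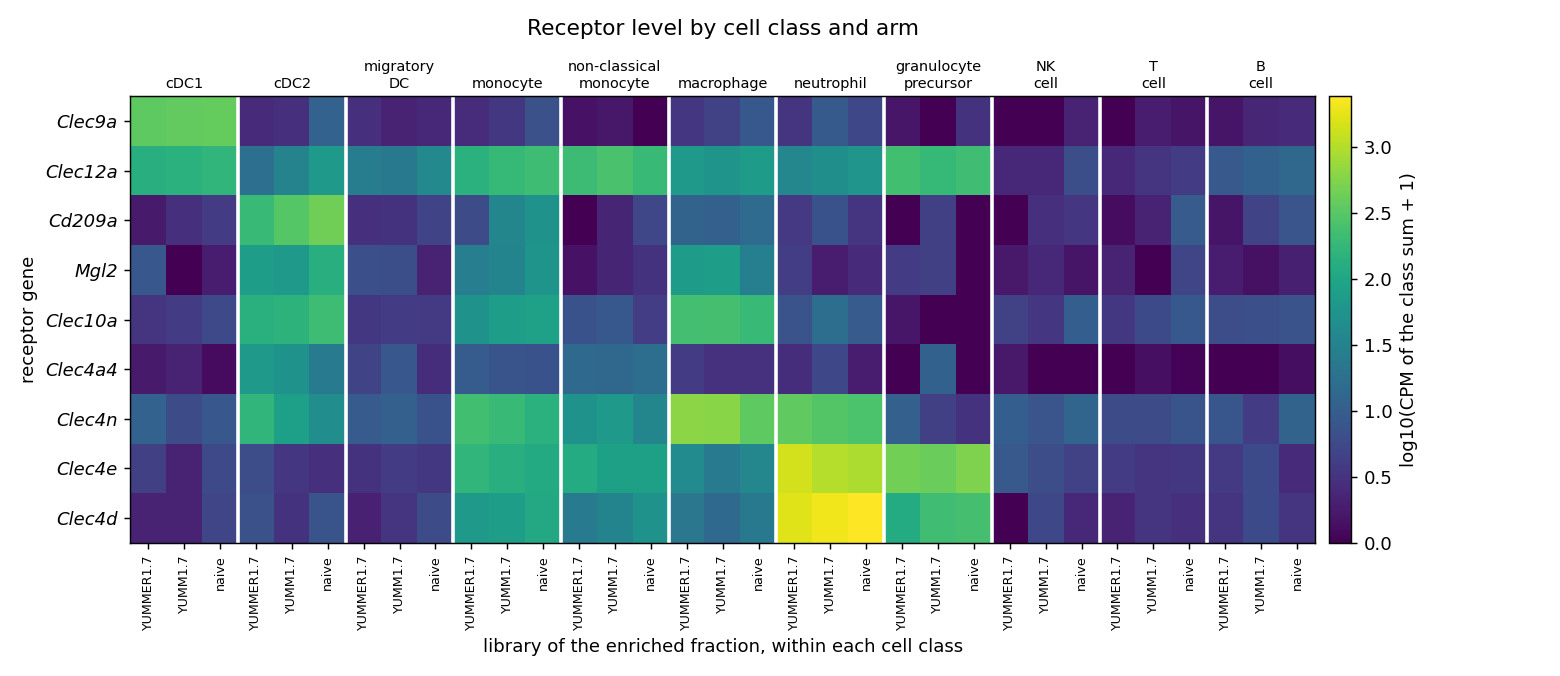
Level of the 9 receptors measured in the enriched fraction (rows) in 11 cell classes and 3 arms (columns), as log10 of the CPM of the class sum plus 1. Clec9a is high in cDC1 alone among these classes, Clec4e and Clec4d are highest in neutrophils, and NK, T and B cells are low for every receptor.

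Clec9a, a receptor for actin filaments exposed on dead cells that aids cross-presentation, was read mainly in 1 class. In type 1 conventional DCs (cDC1) it stood at 350.2 CPM (328.3 to 373.2) in YUMMER1.7, 367.1 (347.6 to 387.3) in YUMM1.7 and 386.7 (366.8 to 407.3) in naive cells. The arms differed little in these cells, with a log2 ratio of YUMMER1.7 over naive of −0.14 (−0.26 to −0.02). Of the Clec9a UMIs of each library, 82.7%, 81.2% and 74.8% came from cDC1 in the YUMMER1.7, YUMM1.7 and naive arms. Among the other named classes with at least 20 cells in every library, the highest value was 10.6 CPM, in naive cDC2. Higher values stood in 2 unnamed clusters described below, at 30.6, 32.5 and 32.5 CPM in the one led by Mmp12 and at 23.5, 34.05 and 65.8 CPM in the cycling one. In cells thinned to 2000 UMIs, 51.6%, 47.0% and 46.6% of cDC1 had a Clec9a UMI in the YUMMER1.7, YUMM1.7 and naive libraries, against 0.338%, 0.278% and 0.604% of B cells. Without thinning the shares were 83.9%, 93.8% and 89.4% of cDC1, at median depths of 22303, 22236.5 and 18103 UMIs, and at most 0.748% of B cells, at 4616, 4249 and 3727. Cells under 2000 UMIs were left out of the thinned shares: 9, 8 and 12 cDC1, 35, 87 and 45 cDC2, 47, 92 and 33 monocytes, 62, 76 and 111 neutrophils and 35, 41 and 59 B cells in the YUMMER1.7, YUMM1.7 and naive libraries.

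Clec12a, an inhibitory ITIM receptor that senses uric acid crystals, was spread over most myeloid classes. Non-classical monocytes, the patrolling kind, held 206.5 CPM in the YUMMER1.7, 258.9 in the YUMM1.7 and 195.6 in the naive library. Granulocyte precursors held 227.6, 185.2 and 220.0 CPM, monocytes 143.8, 185.9 and 213.9, and cDC1 137.3, 144.3 and 169.1 in the same order. Neighbours in this order overlap in their ranges over the arms, while non-classical monocytes and granulocyte precursors lay above cDC1 in every library. Macrophages lay lower, at 64.2, 56.3 and 71.6 CPM, and B cells reached 12.8 CPM in the naive library.

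Cd209a, Mgl2, Clec10a and Clec4a4 shared cDC2, the conventional DC subset that presents antigen to CD4+ T cells, as their highest or second class among the named ones. Cd209a, a mouse relative of human DC-SIGN, was highest there among named classes, at 189.4 CPM in the YUMMER1.7, 309.7 in the YUMM1.7 and 445.7 in the naive library. Its next named class, monocytes, stood at 5.18, 35.0 and 51.8 CPM, and the 2 ranges do not overlap. Mgl2 (CD301b), which binds galactose-type sugars, stood at 75.5, 66.4 and 132.9 CPM in cDC2 and at 70.2, 76.5 and 28.4 in macrophages, ranges that overlap. Clec10a (CD301a), its close relative, was highest in macrophages, at 235.1, 241.1 and 187.2 CPM, and overlapped with cDC2 at 140.0, 151.7 and 214.6. Clec4a4 (DCIR2), an inhibitory receptor used as a cDC2 marker, stood at 65.0, 54.1 and 24.98 CPM in cDC2 and at 13.2, 12.7 and 15.8 in non-classical monocytes.

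An unnamed cluster of 38, 89 and 260 cells in the YUMMER1.7, YUMM1.7 and naive libraries, led by Mmp12, Dcstamp, Lyz1 and Lpl, also held these lectins. Its Cd209a level was 377.1, 474.9 and 462.4 CPM and its Mgl2 level 319.4, 354.8 and 346.2 CPM in the same order. Of all Mgl2 UMIs, this cluster held 9.61% in the YUMMER1.7, 18.0% in the YUMM1.7 and 39.1% in the naive library. In it the Cd209a and Mgl2 ratios of YUMMER1.7 over naive were −0.29 (−0.50 to −0.09) and −0.12 (−0.35 to 0.11), short of a factor of 2, while Clec10a, at 251.4, 147.2 and 117.2 CPM, gave 1.10 (0.82 to 1.37), where 1.96% of genes were called higher and 4.13% lower.

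Clec4n (Dectin-2), which binds fungal mannans and signals through Fcer1g, was highest in macrophages. It stood there at 632.0 CPM (613.0 to 651.4) in YUMMER1.7, 605.1 (585.5 to 625.1) in YUMM1.7 and 345.1 (329.0 to 361.9) in naive cells. Neutrophils followed at 358.5, 297.7 and 266.9 CPM, a range that overlaps with macrophages, and monocytes at 228.1, 194.5 and 144.3. B cells gave 7.16, 3.04 and 10.9 CPM.

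Clec4e (Mincle), a receptor for mycobacterial glycolipids and for a protein of dying cells, and Clec4d (MCL), its partner in the same receptor complex, marked neutrophils. Clec4e stood at 1405 CPM (1357 to 1455) in YUMMER1.7, 1012 (954.1 to 1072) in YUMM1.7 and 923.9 (886.8 to 962.1) in naive neutrophils. Clec4d stood at 1660.0 (1607 to 1714), 2045 (1962 to 2130) and 2428 (2368 to 2490). Clec4e was next highest in granulocyte precursors (465.3, 411.5 and 529.7 CPM) and monocytes (165.7, 136.9 and 114.9). Clec4d likewise stood at 119.7, 222.9 and 245.6 CPM in granulocyte precursors and at 66.8, 77.6 and 108.2 in monocytes. In cells thinned to 2000 UMIs, 92.7%, 93.6% and 97.6% of neutrophils had a Clec4d UMI, against 0.338%, 0.278% and 0.604% of B cells. Without thinning these shares were 94.1%, 94.6% and 98.6% of neutrophils, at median depths of 3397, 2666.5 and 3021.5 UMIs, and 1.28%, 0.998% and 0.971% of B cells.

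Between arms, a member was called in a class when its CPM differed by a factor of at least 2 with at least 50 UMIs over the 2 libraries, in the 12 named classes with at least 20 cells in every library. For YUMMER1.7 over naive, 6 of 55 combinations of member and class were called higher and 13 lower, where 2.17% and 3.32% of all gene and class combinations were called. For YUMM1.7 over naive, 4 of 52 were higher and 8 lower, against 1.16% and 1.96% of all. For YUMMER1.7 over YUMM1.7, 3 of 44 were higher and 1 lower, against 1.29% and 1.12%. The first 2 comparisons share the naive library. The median log2 ratio over the tested combinations was −0.24, −0.25 and −0.07, where the class medians over all genes lay between −0.06 and 0.04 in the DC, monocyte, macrophage and neutrophil classes. Other classes had lower medians over naive, −0.26 for YUMMER1.7 and −0.20 for YUMM1.7 in granulocyte precursors and −0.12 and −0.09 in B cells. In bulk sums of a class, fewer cells with a transcript and less of it per cell cannot be told apart.

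The cDC2 held more calls than any other named class for YUMMER1.7 over naive, 6 of 19. In the YUMMER1.7 library Clec4n, Clec4a4 and Clec4e were higher and Cd209a, Clec12a and Clec9a lower than in the naive library, 3 and 3 of 9 members tested, where 2.84% of genes in cDC2 were called higher and 3.57% lower. Clec4n stood at 167.8 CPM (159.2 to 176.7) in YUMMER1.7, 81.7 (77.1 to 86.5) in YUMM1.7 and 44.1 (39.96 to 48.5) in naive cells. Its 3 intervals do not overlap, and its log2 ratio was 1.93 (1.77 to 2.09) for YUMMER1.7 over naive and 0.89 (0.73 to 1.05) for YUMM1.7 over naive. YUMMER1.7 over YUMM1.7 gave 1.04 (0.93 to 1.15), which lay between 0.79 and 1.10 under other settings and so at the edge of the factor of 2, where 1.03% of genes were called higher and 0.681% lower. Clec4a4 stood at 65.0 (59.7 to 70.6), 54.1 (50.4 to 58.0) and 24.98 CPM (21.9 to 28.4), with log2 ratios over naive of 1.38 (1.16 to 1.60) in the YUMMER1.7 and 1.12 (0.91 to 1.33) in the YUMM1.7 library, where 1.09% of genes were called higher and 2.28% lower in the YUMM1.7 than in the naive library. The Clec4a4 ratios were past the factor of 2 in 6 of 9 other settings for YUMMER1.7 (0.88 to 1.56) and in 5 of 9 for YUMM1.7 (0.73 to 1.33). Both tumour arms thus lay above the naive library, and the interval of one tumour arm did not overlap that of the other.

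Cd209a had 1615 UMIs in YUMMER1.7, 4530 in YUMM1.7 and 4247 in naive cDC2, or 189.4, 309.7 and 445.7 CPM. The log2 ratio over naive was −1.23 (−1.32 to −1.15) in the YUMMER1.7 library and −0.53 (−0.59 to −0.46) in the YUMM1.7 library. Clec12a stood at 16.3 CPM (13.7 to 19.2), 31.2 (28.4 to 34.2) and 65.2 (60.1 to 70.5), with ratios over naive of −2.00 (−2.28 to −1.73) and −1.06 (−1.24 to −0.88), the second between −1.37 and −0.64 under other settings. Both genes thus followed the order YUMMER1.7, YUMM1.7, naive from low to high, the reverse of Clec4n. Clec10a gave −0.62 (−0.72 to −0.51) and −0.50 (−0.59 to −0.41) over naive and was not called. Mgl2 gave −0.82 (−0.95 to −0.68) in the YUMMER1.7 and −1.001 (−1.12 to −0.88) in the YUMM1.7 library, the second just past the factor of 2 and between −1.38 and −0.10 under other settings.

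**Figure D2:**
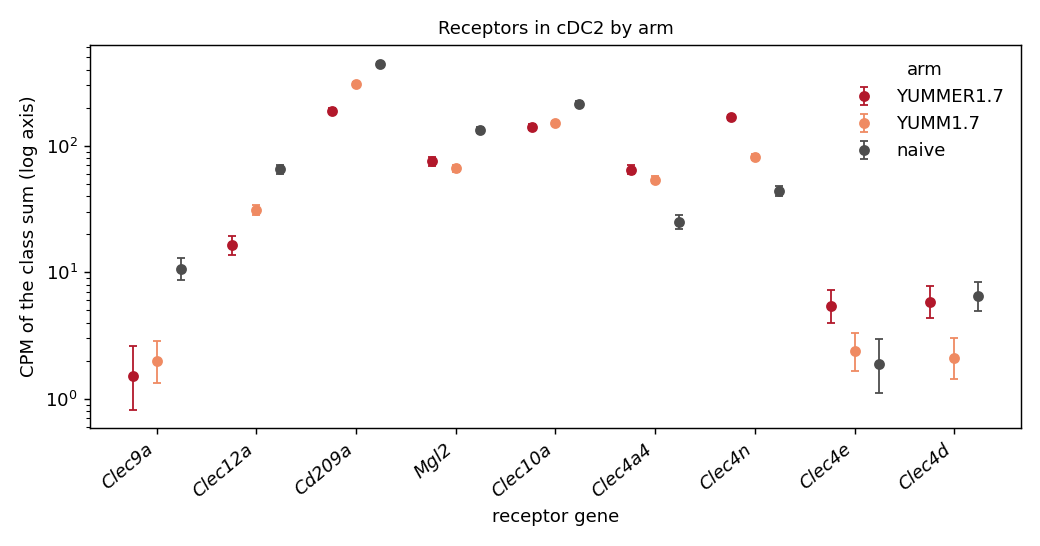
CPM of the cDC2 sum (log axis) for 9 receptors in the YUMMER1.7, YUMM1.7 and naive libraries, with 95% intervals for counting error. Clec4n and Clec4a4 are higher in both tumour arms, and Cd209a and Clec12a are lower in both, with Clec4n at 167.8, 81.7 and 44.1 CPM.

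The shares of cDC2 with a UMI followed the same order. After thinning to 2000 UMIs, 22.0% of 626 YUMMER1.7, 11.4% of 1136 YUMM1.7 and 5.02% of 817 naive cDC2 had a Clec4n UMI, against 1.86%, 0.833% and 1.51% of B cells. For Cd209a the shares were 17.7%, 26.3% and 37.6% of cDC2 and 0.169%, 0.556% and 1.06% of B cells. Without thinning, 52.8%, 34.5% and 20.5% of cDC2 had a Clec4n UMI and 32.7%, 46.0% and 57.4% a Cd209a UMI, at median depths of 13010, 12621 and 11138 UMIs. The unthinned shares of B cells, at their median depths of 4616, 4249 and 3727 UMIs, were 3.51%, 1.75% and 3.47% for Clec4n and 0.319%, 2.24% and 1.53% for Cd209a.

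Low members also passed the factor of 2 in cDC2. Clec9a stood at 1.52 CPM in the YUMMER1.7, 1.98 in the YUMM1.7 and 10.6 in the naive library, 13, 29 and 101 UMIs, and its ratio over naive was −2.80 in the YUMMER1.7 library but 0.20 when each library was clustered alone. Clec4e stood at 5.39, 2.39 and 1.89 CPM and Clec4d at 5.86, 2.12 and 6.51 CPM. Neutrophil markers were also higher in YUMMER1.7 cDC2, 8 of 8 over naive: S100a8 stood at 62.03 CPM in the YUMMER1.7, 17.2 in the YUMM1.7 and 23.4 in the naive library. The part of these markers in the Clec4e and Clec4d values was not tested.

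Markers of other classes were read beside the cDC2 results. The 8 monocyte markers summed to 1754, 1403 and 1108 CPM in YUMMER1.7, YUMM1.7 and naive cDC2, with 5 of 8 higher in the YUMMER1.7 than in the naive library, none at 0. Plac8 carried most of this sum, at 1289, 950.3 and 673.5 CPM. Ly6c2, which defines classical monocytes, went the other way, at 10.2, 20.9 and 58.5 CPM, and so did F13a1 at 1.17, 2.87 and 10.3. The 10 macrophage markers summed to 135.2, 117.0 and 229.2 CPM, with 4 of 10 higher in the YUMMER1.7 than in the naive library. The 8 neutrophil markers summed to 1315, 1154 and 814.7 CPM, most of it Il1r2 (1122, 1099 and 743.6), which is itself a leading gene of the cDC2 cluster. The 8 cDC1 markers summed to 419.9, 501.5 and 753.1 CPM, with 4 of 8 higher and 4 lower in the YUMMER1.7 than in the naive library. The 8 migratory DC markers summed to 364.0, 380.3 and 450.2 CPM, with 1 of 8 higher. The part of these lists in the Clec4n, Clec9a and Clec12a values was not tested.

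At a finer clustering, cDC2 split into a sub-cluster led by Bex6, Ffar2 and Kmo (240, 393 and 171 cells in YUMMER1.7, YUMM1.7 and naive libraries) and one led by Ctnnd2, Scn3a and Klri1 (377, 719 and 449 cells), with smaller ones beside them. Cd209a was higher in the first, at 320.7, 569.1 and 668.9 CPM, than in the second, at 113.7, 174.7 and 255.7 CPM. Clec4a4 was the other way round, at 47.2, 35.4 and 13.9 CPM in the first and 79.3, 67.6 and 38.7 in the second. Clec4n was near equal, at 185.5, 81.7 and 44.8 CPM in the first and 160.0, 81.8 and 45.0 in the second. For these genes and for Clec12a (21.15, 57.4 and 99.1 CPM, and 8.32, 17.2 and 35.5 CPM), the order of the 3 arms was the same within each sub-cluster. Mgl2 stood at 138.3, 113.9 and 154.0 CPM in the first and 36.4, 31.8 and 37.9 in the second, differences smaller than in the whole class. The smaller sub-clusters, most of whose cells were naive, were one led by Mmp12 and Dcstamp (8, 25 and 126 cells) and one led by Cyp7b1, Cd209d and Apod (7, 32 and 90 cells), which the marker rule named plasmacytoid DC at that clustering. The part of these smaller sub-clusters in the Clec9a and Clec12a values of the whole class was not tested.

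**Figure D3:**
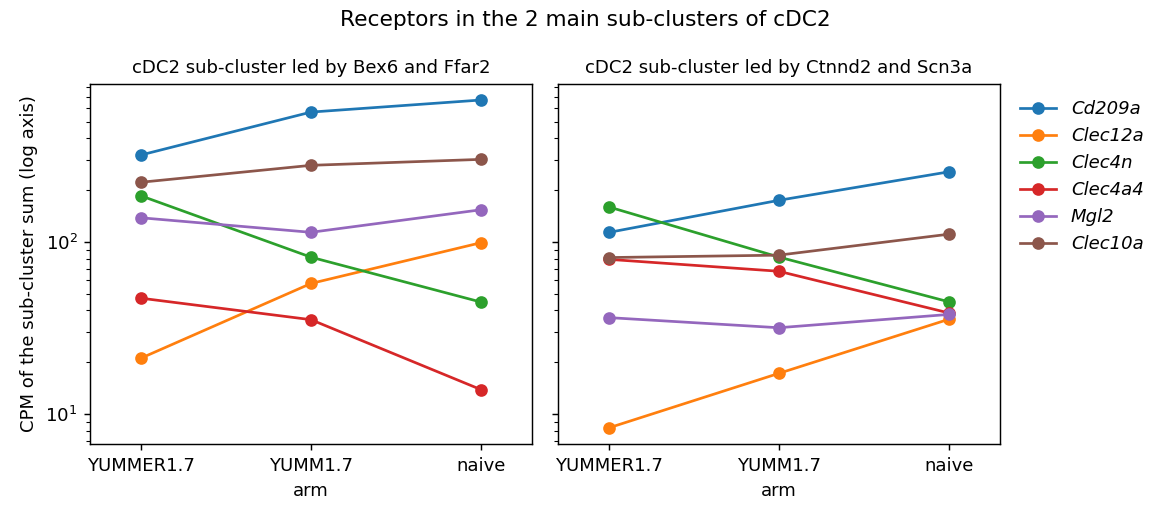
CPM of the sub-cluster sum (log axis) for 6 receptors in the 2 main sub-clusters of cDC2, by arm. Lines join the 3 libraries of a receptor: in both panels Clec4n and Clec4a4 are highest and Cd209a and Clec12a lowest in the YUMMER1.7 library.

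Monocytes, which enter inflamed tissue from blood and can become macrophages, differed most in Cd209a. It stood at 5.18 CPM (4.23 to 6.29) in YUMMER1.7, 35.0 (32.2 to 38.0) in YUMM1.7 and 51.8 (46.4 to 57.6) in naive cells. The log2 ratio was −3.32 (−3.65 to −3.00) for YUMMER1.7 over naive, −0.57 (−0.76 to −0.37) for YUMM1.7 over naive and −2.75 (−3.07 to −2.45) for YUMMER1.7 over YUMM1.7, where 0.907% of genes were called higher and 0.646% lower. In the monocyte cluster led by Ly6i, Spon1 and Ms4a6d the levels were 7.56, 41.7 and 50.6 CPM, and in the cluster led by Vcan and F13a1 they were 0.730, 21.1 and 53.6. The UMIs came from few cells: after thinning, 0.681%, 2.86% and 3.38% of monocytes had one, against 0.169%, 0.556% and 1.06% of B cells, and without thinning 1.85%, 5.52% and 8.48% of monocytes, at median depths of 13128, 10488.5 and 9253 UMIs, against 0.319%, 2.24% and 1.53% of B cells. In the same cells, 7 of 10 cDC2 markers were lower and 3 higher in the YUMMER1.7 than in the naive library. The 10 markers summed to 711.8, 781.9 and 826.8 CPM in YUMMER1.7, YUMM1.7 and naive monocytes. Among the lower ones, Klri1 stood at 3.10, 5.71 and 15.2 CPM and Flt3 at 13.7, 20.7 and 31.7 CPM. The part of these markers in the Cd209a values was not tested. B cells and T cells of the YUMMER1.7, YUMM1.7 and naive libraries showed the same order at low levels, with Cd209a at 0.551, 3.91 and 6.71 CPM in B cells and 0.283, 1.18 and 8.45 CPM in T cells.

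Other receptors of monocytes moved less. Of 9 members tested for YUMMER1.7 over naive in monocytes, none was called higher and 3 were called lower, where 1.72% and 2.67% of genes were called. Mgl2 stood at 27.1, 33.1 and 55.5 CPM in the YUMMER1.7, YUMM1.7 and naive library, with a ratio of YUMMER1.7 over naive of −1.03 (−1.23 to −0.84), past the factor of 2 in 6 of 9 other settings and between −3.66 and −0.74. The low member Clec9a, at 1.68, 2.58 and 5.91 CPM, gave −1.82 (−2.53 to −1.10). Clec4n gave 0.66 (0.56 to 0.76), but was 292.6, 238.9 and 151.9 CPM in the Ly6i-led cluster and 107.3, 102.4 and 132.0 CPM in the cluster led by Vcan and F13a1. The class ratio turned to −0.47 at a coarser clustering. There only a cluster of 1051 cells led by Vcan was named monocyte, and a cluster of 3314 cells led by Ly6i and Ace was named non-classical monocyte. Clec4e and Clec4d went apart, at 0.53 (0.41 to 0.65) and −0.70 (−0.83 to −0.56), although Clec4e gave −0.31 when each library was clustered alone. The 8 neutrophil markers summed to 743.1, 425.8 and 348.6 CPM in the same monocytes, 7 of 8 higher in the YUMMER1.7 than in the naive library, and their part in the Clec4e value was not tested. Clec4e was lower in the Ly6i-led cluster, at 85.8, 69.2 and 33.0 CPM, than in the cluster led by Vcan and F13a1, at 315.5, 277.4 and 247.0. Clec4d was likewise lower in the Ly6i-led cluster, at 27.8, 34.7 and 24.4 CPM, than in the other, at 139.8, 166.5 and 243.3.

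**Figure D4:**
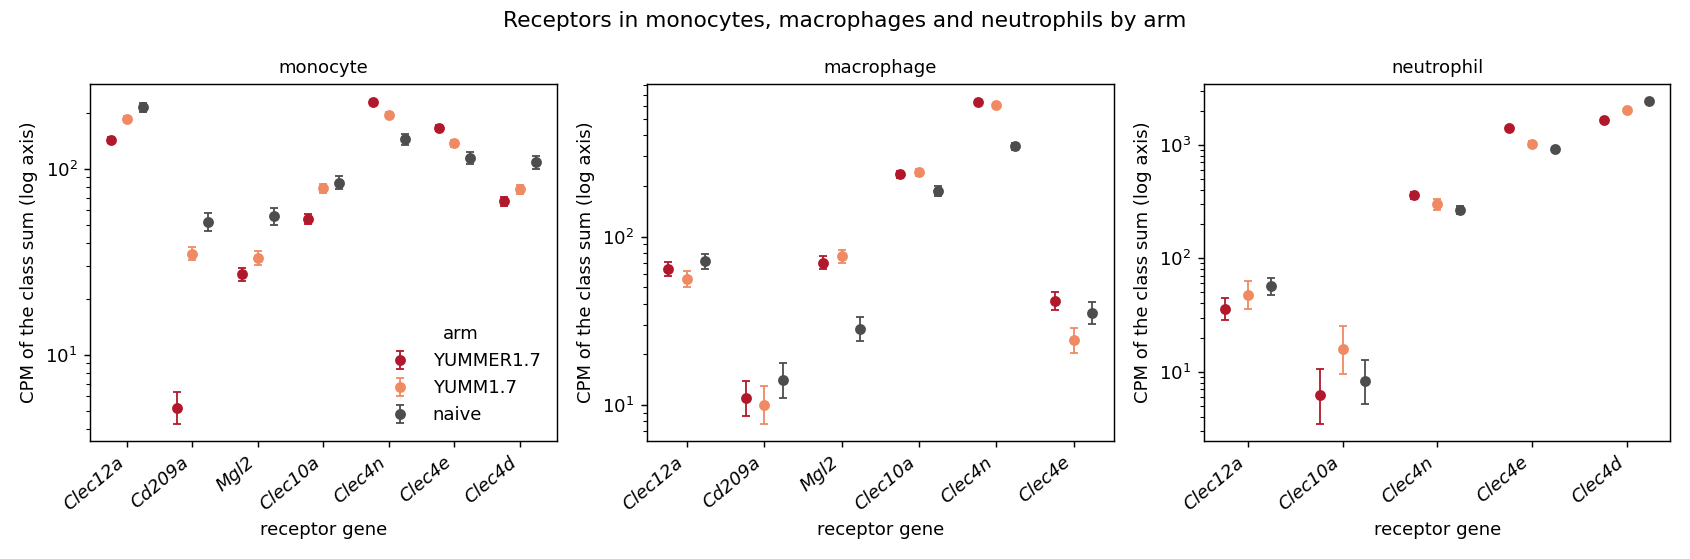
CPM of the class sum (log axes) for the receptors of monocytes, macrophages and neutrophils in the YUMMER1.7, YUMM1.7 and naive libraries, with 95% intervals for counting error. In monocytes Cd209a stands at 5.18, 35.0 and 51.8 CPM, and in neutrophils Clec4e is highest and Clec4d lowest in the YUMMER1.7 library.

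Neutrophils, the first phagocytes to reach an inflamed site, had no called member in any comparison, where 3.14% of their genes were called higher and 4.06% lower for YUMMER1.7 over naive. Clec4e and Clec4d again went apart: the log2 ratio of YUMMER1.7 over naive was 0.61 (0.53 to 0.68) for Clec4e and −0.55 (−0.61 to −0.49) for Clec4d. YUMM1.7 over naive gave 0.13 (0.03 to 0.23) and −0.25 (−0.32 to −0.18). With the stricter cell filter the first pair of values became 0.19 and −1.07. No cluster was named granulocyte precursor under that filter. A cluster led by Camp, Ngp and Ltf (225, 58 and 159 cells in the YUMMER1.7, YUMM1.7 and naive libraries) was named neutrophil there, and its part in these values was not tested. After thinning, 80.9%, 64.1% and 66.3% of neutrophils of the YUMMER1.7, YUMM1.7 and naive libraries had a Clec4e UMI, against 0.677%, 0.556% and 0.151% of B cells, and without thinning 85.8%, 70.1% and 73.3%, against 1.28%, 1.995% and 0.693%. Clec4n gave 0.43 (0.28 to 0.58) for YUMMER1.7 over naive. Granulocyte precursors, few in number at 116, 28 and 47 cells, had 1 call, Clec4d at 119.7, 222.9 and 245.6 CPM, a ratio of YUMMER1.7 over naive of −1.04 (−1.37 to −0.69), where 2.83% of genes were called higher and 10.3% lower. The median over all genes was −0.26 there, and scaling by the median ratio gave Clec4d −0.77, no longer a factor of 2.

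Macrophages differed in Mgl2 and, short of a factor of 2, in Clec4n. For YUMMER1.7 over naive, 1 of 8 members tested was called higher and 1 lower, where 1.6% and 1.73% of genes were called. Mgl2 stood at 70.2 CPM (63.9 to 76.8), 76.5 (69.6 to 83.8) and 28.4 (23.9 to 33.4), with ratios over naive of 1.31 in the YUMMER1.7 and 1.43 in the YUMM1.7 library, where 0.888% of genes were called higher and 1.42% lower for YUMM1.7. A stricter cell filter turned these to −0.54 and −0.14, and the first stood at 0.03 at a finer clustering and 0.11 without doublet removal. In the cluster led by Pf4 and C1qa, the macrophages with the most Mgl2, the levels were 98.3, 129.0 and 40.4 CPM. Clec4n was higher in the tumour arms in each of the 3 macrophage clusters: 1039.8, 685.7 and 489.1 CPM in the shallow one led by Marco, 411.3, 290.9 and 191.7 in the one led by Pf4, and 1117, 1032 and 629.4 in the one led by Asic2 and Ccl8. The class ratio over naive was 0.87 (0.79 to 0.95) and 0.81 (0.73 to 0.89), and stayed positive under the other settings, between 0.59 and 1.03 for YUMMER1.7 and between 0.61 and 0.89 for YUMM1.7. Clec9a, at 2.41, 3.51 and 7.44 CPM, was called lower from 16, 21 and 37 UMIs. The 8 monocyte markers summed to 1123, 719.6 and 634.3 CPM in these macrophages, 7 of 8 higher in the YUMMER1.7 than in the naive library, and their part in the Clec4n and Mgl2 values was not tested.

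In migratory DCs, the CCR7+ cells that carry antigen into the node, every member was low, the highest being Clec12a at 25.1, 22.1 and 37.8 CPM in the YUMMER1.7, YUMM1.7 and naive library. For YUMMER1.7 over naive, 2 of 9 members tested were called higher and 2 lower, where 3.32% and 3.91% of genes were called. Mgl2 stood at 5.63 (4.33 to 7.20), 5.47 (4.25 to 6.93) and 1.15 CPM (0.754 to 1.69), with ratios over naive of 2.29 and 2.24, where 2.32% of genes were called higher and 1.31% lower for YUMM1.7. In the cluster led by Il12b it stood at 8.72, 6.27 and 1.57 CPM. That cluster held 462 of 999 YUMMER1.7, 397 of 1106 YUMM1.7 and 296 of 2199 naive migratory DCs, and with clusters weighted by their naive shares the Mgl2 ratios over naive were 1.09 and 1.37. The YUMM1.7 ratio lay between 0.93 and 3.81 under other settings. The 8 monocyte markers summed to 124.4, 94.5 and 50.2 CPM in migratory DCs, 6 of 8 higher in each tumour arm than in the naive library, and their part in the Mgl2 values was not tested. Clec4a4 stood at 4.02, 7.32 and 1.78 CPM, but most of it lay in 1 small cluster led by Dpp10 and Dkk2, at 36.9, 53.4 and 40.05 CPM. The other migratory DCs held 3, 2 and 7 Clec4a4 UMIs, and without that cluster its ratio over naive was −0.11 in the YUMMER1.7 and −0.80 in the YUMM1.7 library. Clec4d, at 1.07, 2.25 and 5.15 CPM, and Cd209a, at 1.88, 2.09 and 3.95 CPM, were called lower in the YUMMER1.7 library at levels near those of B cells, and the Cd209a ratio was past the factor of 2 in 4 of 9 other settings. Clec4d was also called lower in the YUMM1.7 library, at a log2 ratio over naive of −1.19. The 8 neutrophil markers summed to 233.0, 142.1 and 83.2 CPM in these cells. Of them, 7 of 8 were higher in the YUMMER1.7 than in the naive library, but only 1 of 8 in the YUMM1.7 library. The part of these markers in the Clec4d values was not tested.

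Across cDC1 and non-classical monocytes 1 call was made. No member of cDC1 was called in any comparison, where 1.02% of genes were called higher and 2.39% lower for YUMMER1.7 over naive. Clec12a in cDC1 gave −0.30 (−0.49 to −0.11) for that pair. In non-classical monocytes Clec4d stood at 24.04, 32.9 and 52.6 CPM in the YUMMER1.7, YUMM1.7 and naive libraries, a ratio of YUMMER1.7 over naive of −1.13 (−1.72 to −0.54) that turned to 0.06 without doublet removal and to 0.09 when each library was clustered alone. Of all genes in that class, 2.6% were called higher and 3% lower. The 8 neutrophil markers summed to 421.9, 309.5 and 785.5 CPM in non-classical monocytes, 0 of 8 higher in the YUMMER1.7 than in the naive library, and their part in the Clec4d values was not tested. Among lymphocytes, Cd209a and Clec10a were called lower in YUMMER1.7 T cells, where 3.08% of genes were called higher and 4.25% lower. They had 1 and 9 UMIs in 412 YUMMER1.7 T cells against 92 and 81 in 1582 naive T cells, with log2 ratios of −4.90 and −1.55. Cd209a was also called lower in YUMM1.7 T cells, at −2.84 over naive, where 0.563% of genes were called higher and 2.19% lower.

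A cluster of cycling cells, unnamed and led by histone genes and Top2a, held 188, 238 and 128 cells in the YUMMER1.7, YUMM1.7 and naive libraries. All 8 receptors with enough UMIs to be tested had the same direction for YUMMER1.7 over naive as in cDC2. Clec4d had too few UMIs for the test, 35 in the YUMMER1.7 and 13 in the naive library. Its level went the other way, higher in the YUMMER1.7 than in the naive library here but lower in cDC2. The share of all genes with the same direction was not computed. Of all genes in the cluster, 3.23% were called higher and 2.51% lower. Clec4e had 82, 6 and 4 UMIs in it. The cell types within the cluster were not separated, and their part in these values was not tested. Clec4a4 stood at 52.0, 46.9 and 15.7 CPM there and Clec4n at 47.9, 17.8 and 13.4. Cd209a stood at 18.2, 47.2 and 149.1 CPM, Clec10a at 7.93, 19.5 and 99.6, and Mgl2 at 5.88, 9.24 and 61.7. The ratio of YUMMER1.7 over naive was −3.03 (−3.46 to −2.63) for Cd209a and 1.73 (1.14 to 2.37) for Clec4a4. 

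Over whole libraries, the levels and the cell mix both differed between arms. Clec4n stood at 165.8 CPM in the YUMMER1.7, 126.7 in the YUMM1.7 and 58.6 in the naive library, Clec4a4 at 14.3, 17.5 and 4.995, and Cd209a at 30.1, 85.1 and 88.9. Monocytes made up 23.4%, 22.5% and 6.87% of kept cells and held 38.6%, 35.3% and 20.5% of the Clec4n UMIs. Clec4e stood at 113.8, 55.6 and 48.9 CPM, of which neutrophils held 39.3%, 29.0% and 61.8% and monocytes 40.8%, 56.6% and 19.6%. Clec4d stayed with neutrophils, which held 66.6%, 59.1% and 82.8% of its UMIs.

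**Figure D5:**
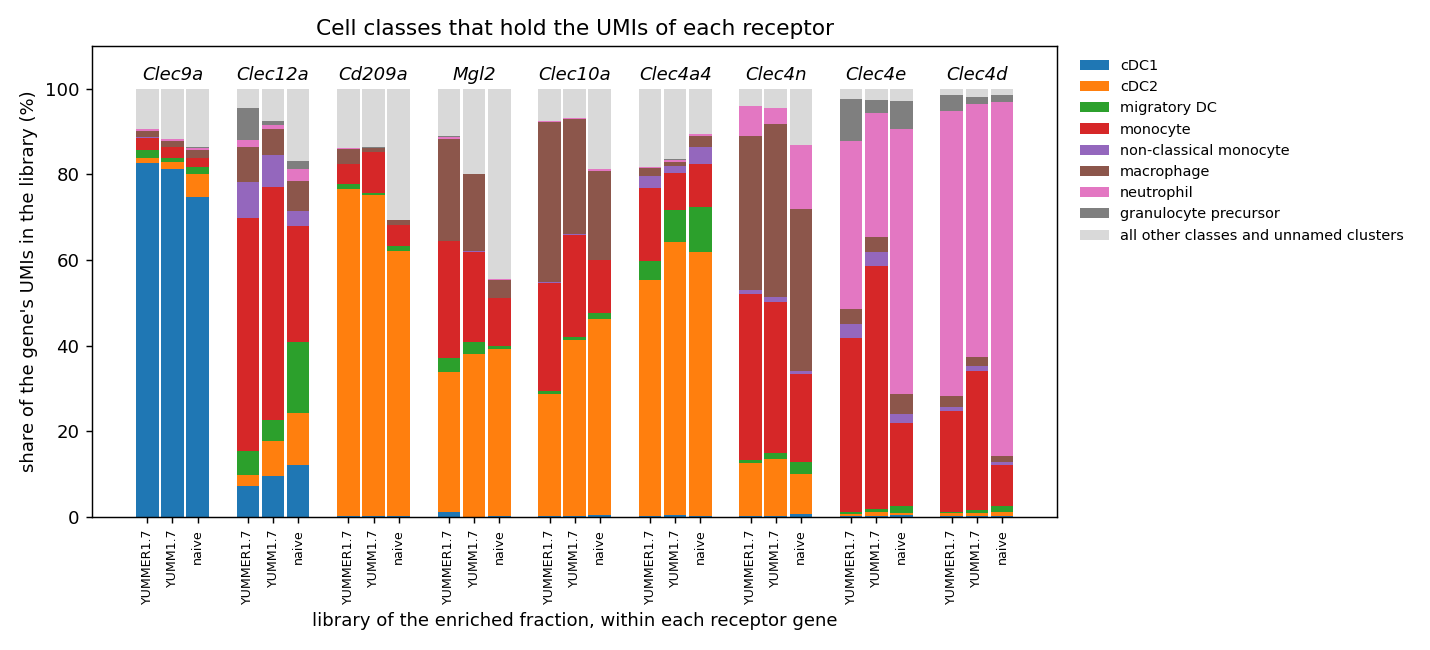
Share of the UMIs of each receptor that lay in each cell class, per library (percent, bars stacked to 100). Clec9a comes mainly from cDC1 and Clec4d from neutrophils in all 3 libraries, while monocytes hold 40.8%, 56.6% and 19.6% of Clec4e in the YUMMER1.7, YUMM1.7 and naive library.

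Within single cells, receptors that share a class were not always in the same cell. Among thinned cDC2 with a Cd209a UMI, 29.7%, 36.5% and 36.5% also had a Clec10a UMI in the YUMMER1.7, YUMM1.7 and naive libraries, against 10.3%, 11.6% and 14.1% of those without. For Clec4a4 the shares were 1.80%, 5.35% and 1.30% of cDC2 with a Cd209a UMI and 12.2%, 10.8% and 7.45% of cDC2 without. In thinned monocytes with a Clec4e UMI, 21.8%, 24.6% and 38.5% had a Clec4d UMI, against 7.30%, 8.56% and 12.4% of the others. Neutrophils carried the most, with a mean of 2.21, 1.99 and 2.06 of the 9 receptors per thinned cell, against 0.767, 0.776 and 0.947 in cDC2. These shares are descriptions over cells of 1 library each.

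Genes most like each member were ranked by the Pearson correlation of log2(CPM + 10) over 39 class and library profiles, among 7679 genes, as a description without a test, since profiles of one library share its depth. Clec9a was most like Xcr1 (0.97), a cDC1 marker that was used to name the class. Clec4e and Clec4d were most like Slc16a3 (0.96 each), a lactate transporter, and like each other (0.95). Clec4a4 and Cd209a were both most like Bex6, at 0.92 and 0.85. Mgl2 and Clec10a reached 0.82 with each other, Mgl2 and Cd209a also 0.82, and Clec4n was most like P2ry13 (0.89), a nucleotide receptor. Clec10a was most like Cebpa (0.83), a myeloid transcription factor.

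Other genes of the pathway were read from 3 lists. Of 18 genes for signalling next to these receptors, which include Syk, Card9, Fcer1g and Ptpn6, 17 were measured in cDC2 and none was called between any 2 arms there. Of all genes in cDC2, 0.681% to 3.57% were called in a given direction and pair. The same was true of 17 or 18 measured genes in monocytes, where those shares were 0.646% to 2.67%. In macrophages Vav3, a signalling exchange factor, was called higher in the YUMMER1.7 than in the naive library (140.2 against 60.9 CPM), 1 of 18. There 1.6% of all genes were called higher and 1.73% lower. At such shares few calls are awaited in a list of this size, so these counts do not set the list apart from other genes. Of 24 other lectin and related receptors, 16 were measured in cDC2 for YUMMER1.7 over naive, of which 1 was called higher and 2 lower, where 2.84% and 3.57% of all genes were called, with a median log2 ratio of 0.07 against 0.01 over all genes. Cd209d, a relative of Cd209a, had the largest ratio of these in cDC2, at 25.2, 64.3 and 209.1 CPM in the YUMMER1.7, YUMM1.7 and naive libraries. The mostly naive sub-cluster led by Cyp7b1 and Cd209d lies inside that class, and its part in the Cd209d values was not tested. Mrc1, the macrophage mannose receptor, was lower too, at 7.04, 8.48 and 25.1 CPM in cDC2, and Cd72 higher at 108.2 CPM in the YUMMER1.7 against 47.4 in the naive library. In monocytes 1 of 17 such receptors was called higher (Ly75) and 5 lower for YUMMER1.7 over naive, where 1.72% and 2.67% of all genes were called, among them Cd209b at 13.5 against 40.7 CPM, Mrc1 at 17.2 against 47.0 and Clec4b1 at 37.9 against 79.1. The 10 macrophage markers summed to 960.3, 1202 and 1401.5 CPM in YUMMER1.7, YUMM1.7 and naive monocytes. Of these markers, 3 were higher and 7 lower in the YUMMER1.7 than in the naive library, and their part in the Cd209b and Mrc1 values was not tested. The shared direction of Cd209a, Cd209b and Cd209d in monocytes was seen after their values and is a description.

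Of 12 cytokine and effector genes that these receptors can switch on, 10 were measured in macrophages for YUMMER1.7 over naive, 3 were called higher and none lower, where 1.6% and 1.73% of all genes were called, and the median log2 ratio was 0.84 against −0.05 over all genes. They were Cxcl2 (215.9 against 79.8 CPM), Cxcl1 (17.5 against 6.23) and Ptgs2 (135.1 against 63.0), in the class whose naive cells were shallow. In cDC2, 2 of 9 were called higher and none lower, Ccl3 at 127.6 against 42.2 CPM and Ccl4 at 332.7 against 162.7, with a median of −0.07, where 2.84% and 3.57% of all genes were called. In neutrophils 4 of 10 were called higher and 1 lower, among them Tnf at 130.2 against 57.4 CPM and Il10 at 61.3 against 18.2, where 3.14% and 4.06% of all genes were called. In monocytes none of 11 was called higher and 3 were called lower, Il6 at 3.10 against 11.97 CPM, Il10 at 5.29 against 13.4 and Il12b at 1.47 against 4.97, where 1.72% and 2.67% of all genes were called. Migratory DCs had 3 of 10 higher and 3 lower, where 3.32% and 3.91% of all genes were called, with Il12b at 373.2 against 100.05 CPM and Cxcl1 at 73.4 against 219.9. In cDC1 1 of 8 was called higher and 1 lower, where 1.02% and 2.39% of all genes were called. In non-classical monocytes none of 7 was called higher and 1 lower, where 2.6% and 3% of all genes were called.

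Clec7a (Dectin-1), the beta-glucan receptor, which signals through its own ITAM-like motif, was described from the depleted fraction. Its highest level there was in a cluster that the marker rule named cDC1, at 44.3 CPM in the YUMMER1.7, 19.8 in the YUMM1.7 and 37.6 in the naive library. That cluster was led by Lyz2, Plbd1 and Slc8a1, none of them on the cDC1 marker list, and held Clec9a at 13.5, 72.5 and 144.6 CPM. Its name is thus uncertain, and Clec7a cannot be placed in cDC1 from it. Migratory DCs of the same fraction held Clec7a at 9.001, 20.5 and 11.3 CPM, and plasmacytoid DCs, the type I interferon producers, at 1.60, 0.687 and 0.740. B cells gave 0.229, 0.226 and 0.0365 CPM, and no comparison of Clec7a between classes of the enriched fraction was made.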

How the data were processed

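Single-cell 3′ libraries of lymph node cells had been made on the Chromium GEM-X platform, per the labels' protocols. The UMI counts deposited by the authors are whole numbers per gene and cell barcode; they had been made with Cell Ranger 8.0.1 on mm10, per the submitters' processing notes, although the file headers of the 3 depleted libraries name version 7.0.0, and how doublets or free RNA were treated is not given in the sources used here. From these counts, cells with at least 500 UMIs, 300 genes and at most 10% mitochondrial UMIs were kept, and cells above the 95th percentile of Scrublet scores in each library were removed. The 3 enriched libraries were clustered together with scanpy 1.11.5 (2000 variable genes without the members, 30 components, 15 neighbours, Leiden resolution 1). Clusters were named from marker lists, and clusters short of the rule stayed unnamed.

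Within each library, the UMIs of a class were summed and scaled to 1000000 (CPM). Intervals are exact Poisson for CPM, Clopper-Pearson for shares and exact conditional binomial for ratios; a count of 0 allows up to 3 counts. Cells are not replicates and each arm has 1 library, so no p-value was computed. All members are named; a member was called at a CPM ratio of at least 2 with at least 50 UMIs over the pair. The calculations were tested on simulated data. The members and gene lists were chosen with earlier results of these data known. Alternatives were other cell filters, doublet treatment, clustering, depth, scaling and thresholds.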

Additional observations from a re-analysis of the deposited data

Results flagged for a closer look

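Mgl2 was past the factor of 2 in opposite directions in different cell classes. For YUMMER1.7 over naive its log2 ratio was 2.29 in migratory DCs and 1.31 in macrophages but −1.03 in monocytes. For YUMM1.7 over naive it was 2.24 in migratory DCs and 1.43 in macrophages but −1.001 in cDC2. With 1 library per arm the difference between classes was not tested. In migratory DCs the level was at most 5.63 CPM and the ratios were 1.09 and 1.37 with clusters weighted by their naive shares. In monocytes the ratio lay between −3.66 and −0.74 under other settings, in cDC2 the YUMM1.7 ratio lay between −1.38 and −0.10, and in macrophages the sign turned under a stricter cell filter.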

How the results depend on the processing

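Of the 9 receptors, 8 or 9 kept the same highest class under every alternative cell filter, doublet treatment, clustering and depth run. In the YUMMER1.7 over naive comparison the cDC2 ratios of Clec4n (1.57 to 2.25), Cd209a (−1.81 to −1.21) and Clec12a (−2.14 to −1.12) and the monocyte ratio of Cd209a (−5.98 to −2.64) stayed past the factor of 2. The cDC2 ratios of Clec4a4 did so in 6 of 9 settings (0.88 to 1.56) and, for YUMM1.7 over naive, in 5 of 9 (0.73 to 1.33), and the monocyte ratio of Mgl2 in 6 of 9 (−3.66 to −0.74). Counts of calls moved more. For YUMMER1.7 over naive the 6 higher calls became 3 at Leiden resolution 2, 2 in thinned cells and 15 with a minimum of 1 UMI, and the 13 lower calls became 3 in thinned cells, 22 with at least 10 UMIs, 34 with at least 1 UMI and 21 at a fold of 1.5. For YUMM1.7 over naive the 4 higher calls became 2 at resolution 2, 1 in thinned cells, 9 with at least 10 UMIs, 18 with at least 1 UMI and 8 at a fold of 1.5. Its 8 lower calls became 14 at resolution 0.5, 14 with each library clustered alone, 2 in thinned cells, 15 with at least 10 UMIs, 25 with at least 1 UMI and 15 at a fold of 1.5. For YUMMER1.7 over YUMM1.7 the 3 higher calls became 1 without doublet removal, 1 in thinned cells, 8 with at least 10 UMIs, 15 with at least 1 UMI and 5 at a fold of 1.5. Its 1 lower call became 5 with the stricter cell filter, 7 without doublet removal, 4 at resolution 0.5, 3 at resolution 2, 4 with each library clustered alone, 8 with at least 10 UMIs, 23 with at least 1 UMI and 6 at a fold of 1.5. Lower minimums and folds admit more combinations by construction; the cause of the other moves was not tested.

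Called ratios that turned sign were those of low or mixed values. Clec9a turned to 0.20 in cDC2 (YUMMER1.7 over naive) and 0.21 in monocytes (YUMM1.7 over naive) with each library clustered alone. Mgl2 in macrophages turned to −0.54 in YUMMER1.7 and −0.14 in YUMM1.7 over naive with the stricter filter. Clec4a4 in migratory DCs turned for YUMMER1.7 over naive to −0.11 at resolution 0.5, −0.12 at resolution 2, −0.32 with clusters weighted by their naive shares and −0.11 without the cluster led by Dpp10, and for YUMM1.7 over naive to −0.80, −0.81 and −0.80 at resolution 0.5, at resolution 2 and without that cluster, an alternative chosen after seeing the data. Clec4d in non-classical monocytes (YUMMER1.7 over naive) turned to 0.063 without doublet removal and 0.088 with each library clustered alone. At resolutions 0.5 and 2 the cluster led by Dpp10 and Dkk2 was named cDC2, so its cells were outside the migratory DCs there. With the stricter filter the macrophage class held a cluster of 1359 cells led by Itga9, C1qb and C1qa. Class names thus did not cover the same cells in every setting, and the part of this in the ratios was not tested. No paired analysis was possible because each arm has 1 library per fraction, and for the same reason no replicate could be left out.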

Other observations

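Plasmacytoid DCs were named in the CD45-depleted fraction and also held members of the set. Among 117, 162 and 149 such cells in the YUMMER1.7, YUMM1.7 and naive libraries, Clec12a stood at 288.7, 352.2 and 376.8 CPM, Clec10a at 333.6, 311 and 226.6, Cd209a at 69.77, 143.5 and 118.5 and Clec9a at 97.03, 92.01 and 105.1. Clec4a4, Clec4n, Clec4e and Clec4d had 0 UMIs in these cells, which allows up to 2.41, 2.06 and 2.22 CPM by counting error alone. Mast cells or basophils of that fraction held Clec4e at 72.53, 102.8 and 97.41 CPM and Clec10a at 58.38, 62.04 and 42.62. These libraries use another gene list than the enriched ones, so no level was compared across the fractions.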
